A study of Canis lupus familiaris with 23 samples.

Results

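The 10 genes described here are markers and enzymes of fat cells and of the sebaceous gland: PLIN1, PLIN4, ADIPOQ, FABP4, LPL and PPARG on the fat cell side, and ELOVL3, FAR2, MGST1 and SOAT1 on the sebaceous side. They were chosen by symbol, and each matched 1 of the 21416 gene entries that any library lists. The 23 dog libraries, in 12 groups, were made by CEL-seq2, which reads pooled RNA near the 3′ end of each transcript. Follicle-derived organoids in differentiation medium (DF) gave 2 libraries without Noggin, R-Spondin-1 and Forskolin (DF noNR minusF), 2 without Noggin and R-Spondin-1 (DF noNR) and 2 for which no such omission is named (DF). Organoids in expansion medium were derived from interfollicular epidermis (IFE) or hair follicle (HF). The IFE organoids were grown with a Tgf-beta inhibitor and gave 1 library at later and 1 at early passage. The HF organoids gave 2 later and 3 early libraries with the inhibitor, and 2 later and 2 early libraries without it. All organoids were taken on day 7 of culture, at passages 3 to 6 (later, and all of the differentiation medium) or 0 to 1 (early). Tissue gave 2 libraries each of hair follicles, a mixture of growing (anagen) and resting (telogen) ones, of interfollicular epidermis and of whole skin. No strain, age or genotype is given in the sources used here.

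Fat cells store triglyceride in a large droplet whose surface is held by perilipins, take up fatty acids that lipoprotein lipase frees from circulating lipoproteins, and secrete hormones such as adiponectin. Sebaceous glands open into the upper hair follicle, and their cells fill with wax esters, cholesterol esters and triglycerides before they burst. The nuclear receptor PPARG drives the differentiation of both cell types, so several lipid genes are shared between them. In dog skin fat lies below and around the lower ends of growing follicles.

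Total counts ran from 86301 to 4822410 per library, and the shallowest was an interfollicular epidermis library. Levels are CPM, counts over the TMM-scaled library total, so that a value can be compared between libraries. A count of 0 still allowed up to 3 counts, which covers counting error only. On the scaled totals 3 counts are 0.684 CPM in the deepest library and 23.1 CPM in the shallowest. Of 6 hair follicle markers chosen, all libraries list 2, KRT32 and LHX2. These summed to 1517 to 1934 CPM in hair follicles, 15.4 to 123.1 CPM in interfollicular epidermis and 902 to 1259 CPM in whole skin. All 6 suprabasal keratinocyte markers together stood at 1503 to 1931 CPM in hair follicles, 12870 to 17090 CPM in interfollicular epidermis and 4016 to 4360 CPM in whole skin. Organoids of both origins and all media held 27270 to 77440 CPM of the 5 basal keratinocyte markers, against 7042 to 16430 CPM in the tissues. In these bulk libraries fewer cells of a type and less RNA per cell cannot be told apart.

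**Figure D1:**
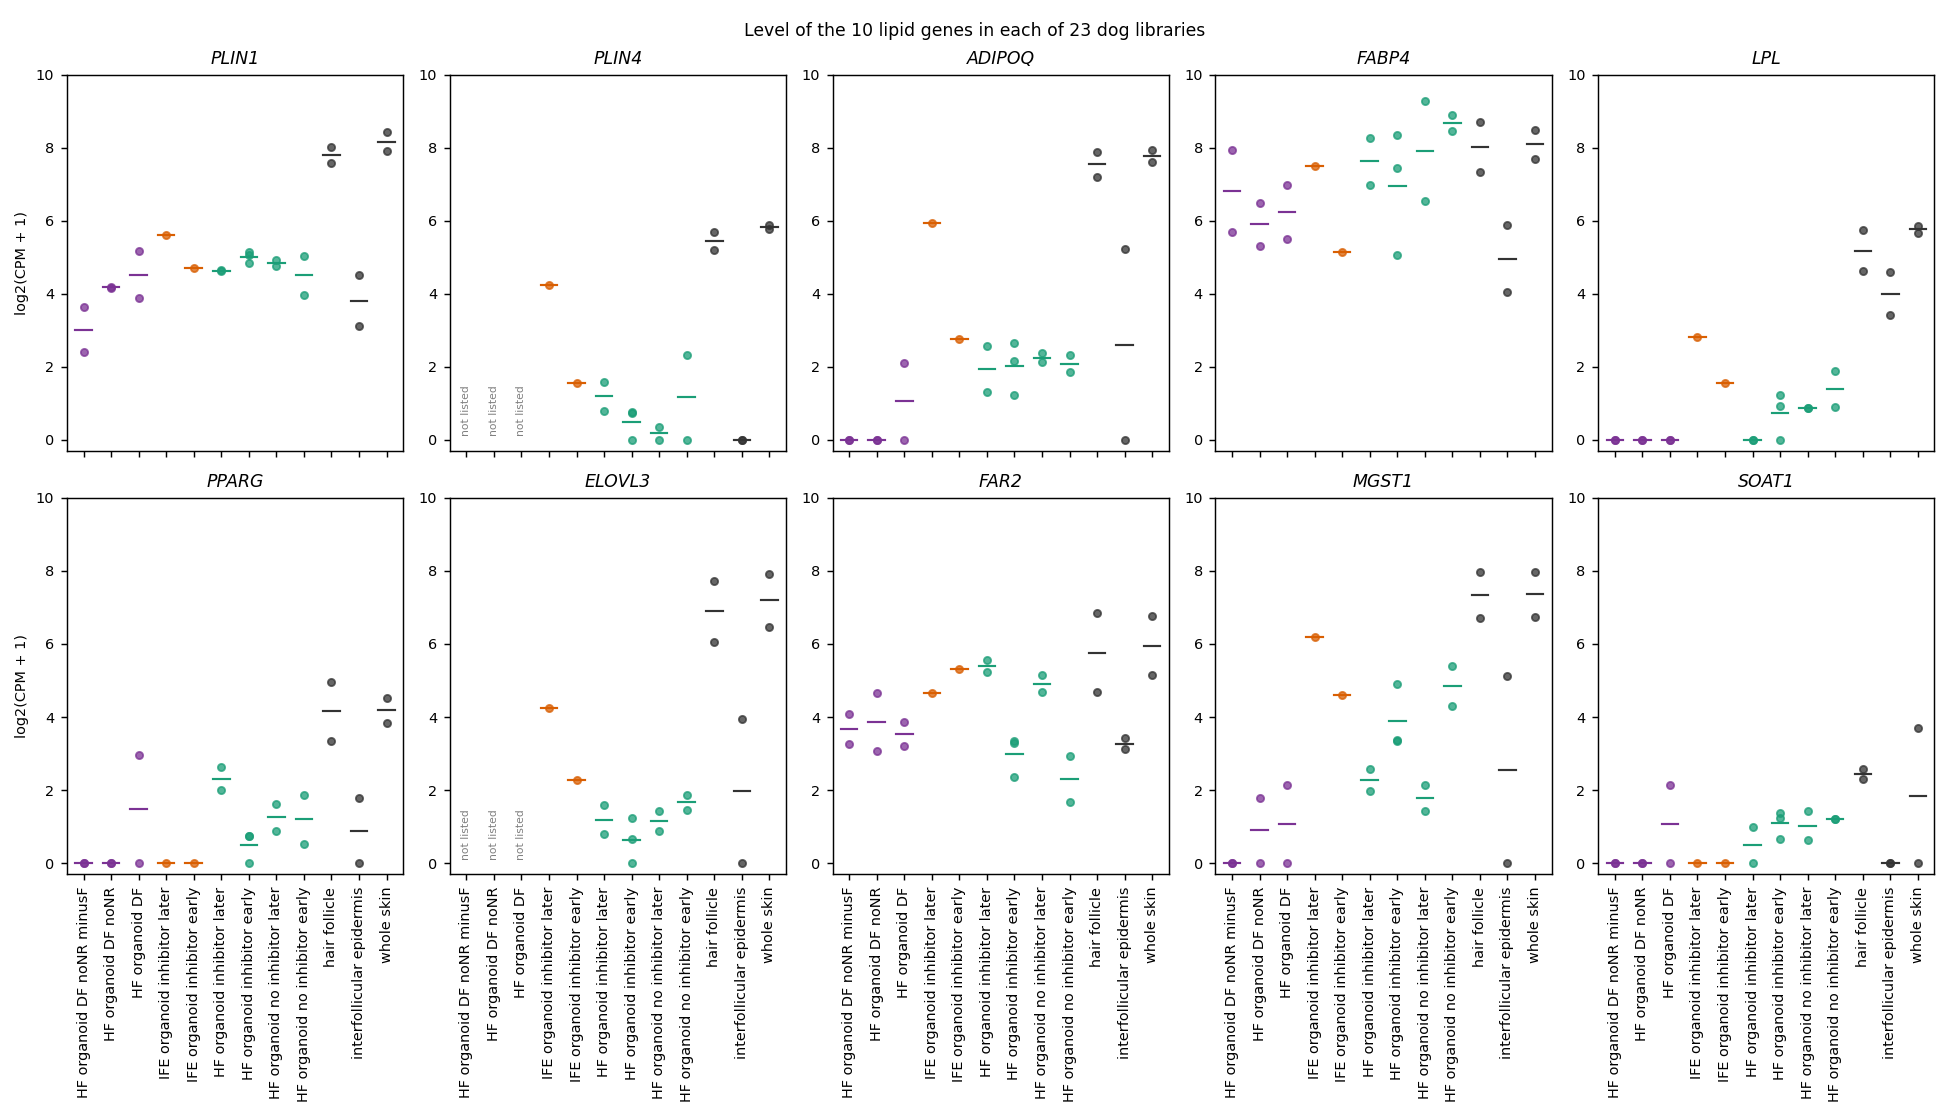
Level of each of the 10 genes, as log2(CPM + 1), in all 23 libraries. Each point is a library, the bar is the mean of its group on this scale, and "not listed" marks groups whose files hold no entry for the gene. The hair follicle and whole skin points lie together at the top for most genes, whereas FABP4 in HF organoids spans 32.6 to 619.2 CPM and overlaps the tissues.

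The fat cell genes were abundant in hair follicles and whole skin and scarce in interfollicular epidermis. PLIN1, which coats the fat droplet and gates its breakdown, stood at 189.8 and 256 CPM in hair follicles, 21.7 and 7.71 CPM in interfollicular epidermis, and 342 and 239 CPM in whole skin. ADIPOQ, the adiponectin gene, stood at 147 and 234 CPM in hair follicles, 36.2 and 0 CPM in interfollicular epidermis, and 245 and 195 CPM in whole skin. For both genes the interfollicular libraries lay below every hair follicle and whole skin library, and these tissues overlapped each other. PLIN4, a perilipin of fat cell droplets, stood at 35.4 and 50.2 CPM in hair follicles, 0 CPM in both interfollicular libraries, and 57.5 and 53.7 CPM in whole skin. Its 107 counts in hair follicles and 117 in whole skin faced none in interfollicular epidermis.

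The other fat cell genes had wider spreads. FABP4, a fatty acid carrier of fat cells that macrophages also express, stood at 159.7 and 419 CPM in hair follicles, 57.9 and 15.4 CPM in interfollicular epidermis, and 206 and 356 CPM in whole skin. LPL, the lipoprotein lipase, stood at 23.6 and 52.7 CPM in hair follicles, 9.65 and 23.1 CPM in interfollicular epidermis, and 56.8 and 49.7 CPM in whole skin. The highest interfollicular LPL value was 3 counts in the shallowest library, and lay next to the lowest hair follicle value. PPARG stood at 9.16 and 30.1 CPM in hair follicles, 2.41 and 0 CPM in interfollicular epidermis, and 13.4 and 21.9 CPM in whole skin. A single PPARG count was found in interfollicular epidermis, so that its level there is known only within wide limits.

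ELOVL3, FAR2 and MGST1 were likewise lowest in interfollicular epidermis. ELOVL3, which elongates saturated fatty acids and is known from mouse sebaceous glands, stood at 65.5 and 211 CPM in hair follicles, 14.5 and 0 CPM in interfollicular epidermis, and 88.1 and 241 CPM in whole skin. FAR2, which reduces fatty acids to the alcohols of waxes, stood at 24.9 and 114 CPM in hair follicles, 9.65 and 7.71 CPM in interfollicular epidermis, and 34.5 and 107 CPM in whole skin. MGST1, a membrane-bound glutathione transferase used as a sebocyte marker in mouse skin, stood at 103 and 249 CPM in hair follicles, 33.8 and 0 CPM in interfollicular epidermis, and 107 and 249 CPM in whole skin. In hair follicles and in whole skin alike, replicate 2 was the higher library for all 3 genes. SOAT1, which esterifies cholesterol, stood at 3.93 and 5.02 CPM in hair follicles, 0 CPM in both interfollicular libraries, and 0 and 11.9 CPM in whole skin. With 39 counts over all 23 libraries it did not pass the filter on low counts, so 9 of the 10 genes were tested here.

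Between hair follicles and interfollicular epidermis 5 of the 9 tested genes rose and none fell, where 2.79% of all 9888 genes were called (2.05% higher and 0.738% lower). Called means an adjusted p under 0.05 in edgeR's quasi-likelihood test over all genes. PLIN1 was higher in hair follicles by 3.67 ± 0.52 on the log2 scale (SE, edgeR adjusted p = 0.000349), ELOVL3 by 3.73 ± 0.83 (0.0172), ADIPOQ by 2.94 ± 0.63 (0.0118) and MGST1 by 2.93 ± 0.79 (0.0498). PLIN4 was at least 5.89-fold higher, by 3 counts over the interfollicular group (edgeR adjusted p = 0.0197). FAR2 (2.95 ± 0.89, 0.0841), FABP4 (2.77 ± 1.04, 0.177) and LPL (1.52 ± 0.71, 0.304) missed the threshold. Without the low-count filter FAR2 (2.98, 0.00162) and FABP4 (2.80, 2.19e-05) were called. PPARG missed the threshold too (edgeR adjusted p = 0.211). Its ratio of summed counts was 10.3, with an exact 95% interval from 1.78 to 415. That interval covers counting error only and leaves out the spread between libraries. The median log2 change of the 9 genes was 2.95, or 2.94 with PLIN4 at its bound, against 0.21 over all genes. Scaling by library totals put the all-gene median at -0.10 and the split of all calls at 145 higher and 143 lower, against 203 higher and 73 lower with TMM.

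The PLIN1 call held without each single library. Its change was 4.82 without interfollicular replicate 1. The other calls rested on particular libraries. Without hair follicle replicate 2, PLIN1 was the 1 gene called, and ADIPOQ (2.60, edgeR adjusted p = 0.102), ELOVL3 (2.67, 0.195), MGST1 (2.19, 0.306) and PLIN4 (adjusted p = 0.105) were not. Without interfollicular replicate 2, PLIN1 was again the 1 gene called, with ADIPOQ at 2.40 (0.0738), ELOVL3 at 3.27 (0.116), MGST1 at 2.40 (0.209) and PLIN4 at an adjusted p of 0.0714. Without interfollicular replicate 1, no count of ADIPOQ, ELOVL3, MGST1 or PLIN4 remained in that tissue, and PLIN1 and ADIPOQ were called. Without hair follicle replicate 1, FAR2 was called too (3.62, 0.0248), and ELOVL3 stood at 4.32. MGST1 also missed the threshold with median-ratio size factors (2.79, 0.0648) and library totals (2.63, 0.0819).

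Markers of other skin cells also stood at different levels in these tissues. Of the 9 fibroblast markers 2 were called higher in hair follicles, and their sum ran from 4433 to 7357 CPM there, against 1257 to 3676 CPM in interfollicular epidermis. The 5 summed smooth muscle markers stood at 1400 to 1866 CPM in hair follicles and 486 to 850 CPM in interfollicular epidermis, with 0 of 6 tested markers called. The 4 summed endothelial markers stood at 55.2 to 62.8 CPM in hair follicles and 16.9 to 46.3 CPM in interfollicular epidermis, with 0 of 4 called. Immune markers ran the other way, at 102 to 234 CPM in hair follicles and 623 to 655 CPM in interfollicular epidermis, with 1 of 5 called lower. The part of these cells in the lipid gene differences was not tested.

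Hair follicles and whole skin were not told apart. None of the 9 genes was called between them, and 0% of all 9888 genes was called. At an unadjusted p under 0.05 edgeR passed 144 genes and 0 of the 9, and DESeq2 called 0 genes. The libraries of both tissues overlapped for 8 of the 9 genes, and PLIN4 was the exception. The share of all genes that overlap so was not counted, so no reading of the 9 as a set is drawn from this.

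Between interfollicular epidermis and whole skin 4 of the 9 genes fell and none rose, where 1.56% of all genes were called (0.162% higher and 1.4% lower). This comparison shares the interfollicular libraries with the preceding one. The log2 change was -4.05 ± 0.53 for PLIN1 (edgeR adjusted p = 0.000567), -3.93 ± 0.83 for ELOVL3 (0.0176) and -3.15 ± 0.63 for ADIPOQ (0.0116). PLIN4 was at least 7.66-fold lower (0.0165). The median log2 change was -3.15, or -2.94 with PLIN4 at its bound, against -0.20 over all genes. With library totals the all-gene median became 0.04, and the split of all calls became 37 higher and 107 lower, against 16 higher and 138 lower with TMM. MGST1 (-2.90 ± 0.80, edgeR adjusted p = 0.0766) was called by DESeq2 at -2.94 (0.043). Without the low-count filter MGST1 (-2.94, 5.46e-05), FAR2 (-2.90, 0.00472) and FABP4 (-2.74, 6.22e-05) were called by edgeR.

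PLIN1 held without each library, at -5.20 without interfollicular replicate 1. PLIN4 was lost without any 1 of the 4 libraries (edgeR adjusted p = 0.0707 and 0.0584 without whole skin replicates 1 and 2, 0.356 and 0.069 without interfollicular replicates 1 and 2). ADIPOQ was lost without whole skin replicate 1 (-2.98, 0.0612) and interfollicular replicate 2 (-2.61, 0.0701). ELOVL3 was lost without whole skin replicate 2 (-3.07, 0.161), interfollicular replicate 2 (-3.47, 0.121) and interfollicular replicate 1 (adjusted p = 0.117), and stood at -4.51 without whole skin replicate 1. Without interfollicular replicate 1 no ADIPOQ or ELOVL3 count was left in that tissue.

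**Figure D2:**
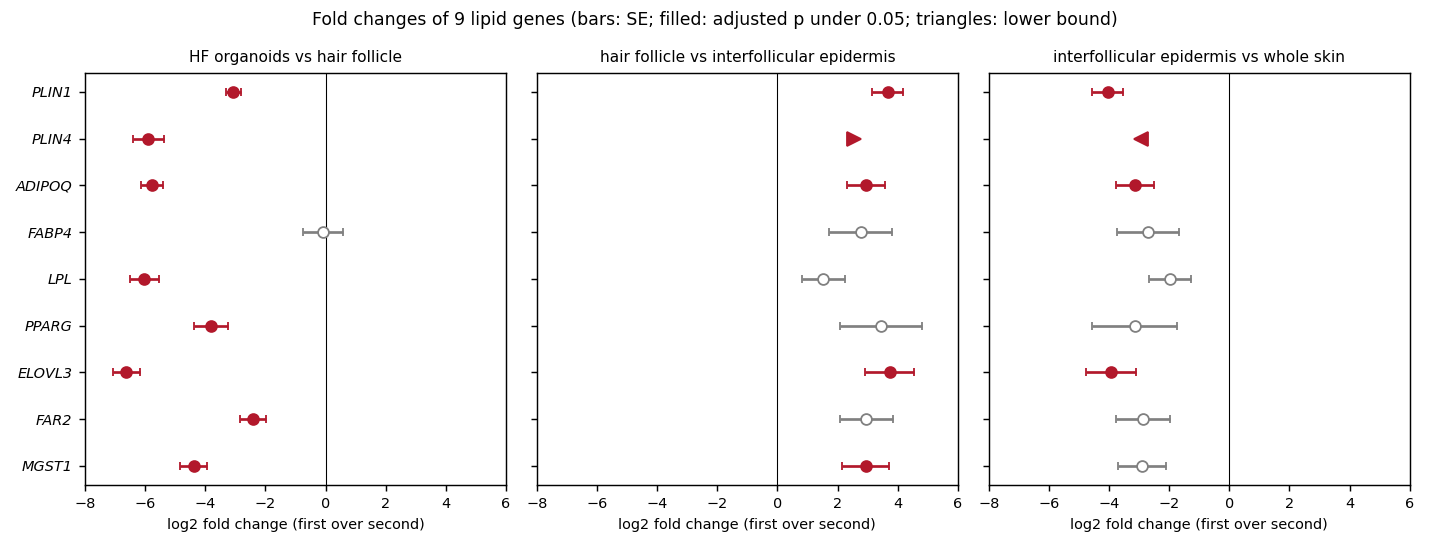
Log2 fold change of the 9 tested genes in 3 comparisons, first group over second, with bars of 1 SE. Filled points passed an edgeR adjusted p under 0.05, and triangles mark PLIN4 at its lower bound. In HF organoids 8 genes lie well below 0 and FABP4 lies at -0.09.

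The balance of 3 sebaceous and 3 fat cell genes differed between replicates of hair follicles and of whole skin. ELOVL3, FAR2 and MGST1 summed to 194 CPM in hair follicle replicate 1 and 573 CPM in replicate 2. PLIN1, PLIN4 and ADIPOQ summed to 372 CPM in hair follicle replicate 1 and 541 CPM in replicate 2. The ratio of the sums was therefore 0.521 and 1.06 in hair follicles, and it was 0.356 and 1.22 in whole skin. The fat cell sum leaves out FABP4, LPL and PPARG. In hair follicles these stood at 159.7, 23.6 and 9.16 CPM in replicate 1 and 419, 52.7 and 30.1 CPM in replicate 2. The ratio thus describes the summed genes only, and was not computed with the others. In whole skin the sebaceous sum was 229 CPM in replicate 1 and 597 CPM in replicate 2, and the fat cell sum was 644 and 487 CPM. In whole skin PLIN1, PLIN4 and ADIPOQ were each lower in replicate 2, as was LPL, whereas FABP4 and PPARG were higher in replicate 2, as the 3 sebaceous genes were. In interfollicular epidermis the ratio was 1 in both libraries, but replicate 2 held 1 count of each kind and replicate 1 held 24.

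**Figure D3:**
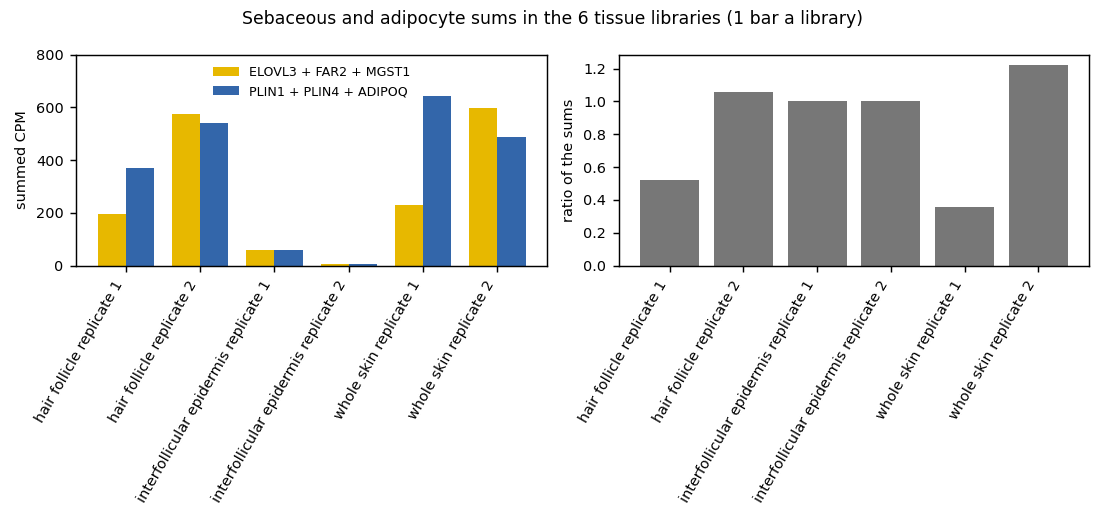
Summed CPM of 3 sebaceous genes (ELOVL3, FAR2, MGST1) and 3 fat cell genes (PLIN1, PLIN4, ADIPOQ) in each tissue library, left, and the ratio of the first sum to the second, right. Each bar is a library. The sebaceous sum is 194 and 573 CPM in hair follicles and 229 and 597 CPM in whole skin, and the interfollicular bar of replicate 2 rests on 1 count on each side.

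Wider lists of the same pathways, which hold members of the 10 as well, were counted in the tissues. Of a list of 30 fat cell genes, 25 were in the files and 20 were tested, and 6 were higher in hair follicles than in interfollicular epidermis, none lower. Without the genes described here 3 of 14 were higher. Its median log2 change was 2.81. CIDEC, which fuses fat droplets, averaged 97.3 CPM in hair follicles and 4.83 CPM in interfollicular epidermis, a change of 3.78 ± 0.65 (edgeR adjusted p = 0.00142). G0S2, an inhibitor of triglyceride lipase, averaged 70.2 and 3.62 CPM in the same tissues (3.70 ± 0.77, 0.0105). Among 20 tested of 29 sebaceous genes 5 were higher and none lower, with a median of 1.63, and 3 of 16 without the genes described here. They included PLIN2, the droplet coat of cells other than fat cells (2.96 ± 0.59, 0.00581), and SCD, which makes monounsaturated fatty acids (1.91 ± 0.47, 0.027). Of 20 tested genes of droplets and PPAR targets 5 were higher and none lower, with a median of 0.70. Of 14 tested relatives of the 10 genes 1, PLIN2, was higher and none lower, with a median of 0.29. The all-gene share and median of this comparison are the 2.05% higher and 0.21 given before. No listed gene was called between hair follicles and whole skin.

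Interfollicular epidermis against whole skin gave 7 lower fat cell genes, 4 lower sebaceous genes, 5 lower droplet and PPAR target genes and 1 lower relative, and none higher, where 1.4% of all genes were lower. Without the genes described here 4 of 14 fat cell genes and 3 of 16 sebaceous genes were lower. The medians were -3.11, -1.84, -0.88 and -0.57, against -0.20 over all genes. CIDEC (-4.18 ± 0.64), G0S2 (-3.99 ± 0.76), PLIN2 (-2.81 ± 0.59) and SCD (-2.02 ± 0.47) were among them. In both comparisons CIDEC was called without any 1 library, whereas G0S2, PLIN2 and SCD each missed the threshold without at least 1. Of the more restricted sebaceous genes, AWAT1, a wax ester synthase, averaged 12.02 CPM in hair follicles, 0 CPM in interfollicular epidermis and 24.7 CPM in whole skin, AWAT2 was at 0 CPM in all 3, and MC5R, a melanocortin receptor of sebocytes, averaged 0.31, 0 and 0.32 CPM in the same order. LEP, the leptin gene of fat cells, averaged 2.90 CPM in hair follicles, 0 CPM in interfollicular epidermis and 5.18 CPM in whole skin.

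In HF organoids the fat cell and sebaceous genes were lower than in hair follicles, except FABP4. Over the 9 HF organoid libraries in expansion medium, ADIPOQ ran from 1.34 to 5.24 CPM with a median of 3.45 CPM, against 147 and 234 CPM in hair follicles. ELOVL3 ran from 0 to 2.67 CPM with a median of 1.37 CPM, against 65.5 and 211 CPM. LPL was 0 to 2.67 CPM with a median of 0.85 CPM, against 23.6 and 52.7 CPM. No HF organoid library reached the lower hair follicle library for any of these 3 genes. PLIN4 reached 4 CPM in 1 library, was at 0 CPM in 3 of 9, and stood at 35.4 and 50.2 CPM in hair follicles. PPARG ran from 0 to 5.15 CPM in HF organoids and stood at 9.16 and 30.1 CPM in hair follicles. The groups did not overlap for either gene.

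PLIN1 kept a clear signal in culture. It was counted in all 23 libraries and ran from 14.7 to 34.2 CPM in HF organoids, with 550 counts in all, against 189.8 and 256 CPM in hair follicles. MGST1 ran from 1.67 to 41.3 CPM in HF organoids, against 103 and 249 CPM in hair follicles. FAR2 ran from 2.18 to 46.4 CPM in HF organoids, against 24.9 and 114 CPM in hair follicles, so that its groups overlapped.

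Of the 9 genes 8 fell in HF organoids against hair follicles and none rose, where 28% of all genes were called (9.06% higher and 19% lower). The log2 change was -6.62 ± 0.46 for ELOVL3 (SE, edgeR adjusted p = 1.92e-09), -6.03 ± 0.49 for LPL (3.4e-08), -5.89 ± 0.51 for PLIN4 (6.97e-08) and -5.78 ± 0.37 for ADIPOQ (3.22e-10). It was -4.38 ± 0.44 for MGST1 (1.41e-07), -3.81 ± 0.58 for PPARG (4.2e-05), -3.06 ± 0.27 for PLIN1 (8.06e-09) and -2.42 ± 0.43 for FAR2 (0.000159). The median change of the 9 genes was -4.38, against 0.00 over all genes. Size factors moved that all-gene median to -0.17 and the split of all calls to 615 higher and 2179 lower, against 896 higher and 1876 lower with TMM. FAR2 (-0.91, 0.386) and PPARG (-2.66, 0.0815) were lost without hair follicle replicate 2, which also moved ELOVL3 to -5.54, LPL to -5.30 and MGST1 to -3.62. Without hair follicle replicate 1 FAR2 stood at -3.06, and without the no-inhibitor early replicate 1 PLIN4 stood at -6.77.

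FABP4 stood apart from the other 8. It stood at 124 and 309.0 CPM in later HF organoids with the inhibitor and at 325, 173 and 32.6 CPM in early ones. Without the inhibitor it stood at 92.4 and 619.2 CPM in later organoids and 477 and 347 CPM in early ones. Hair follicles, at 159.7 and 419 CPM, lay inside the range of these libraries. The log2 change against hair follicles was -0.09 ± 0.67 (edgeR adjusted p = 0.944), and was 0.76 ± 0.99 without hair follicle replicate 2. The 5 summed macrophage and immune markers stood at 1.99 to 12.8 CPM in these organoids and 102 to 234 CPM in hair follicles, and the 4 summed endothelial markers at 5.01 to 16.8 CPM and 55.2 to 62.8 CPM.

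The fall of the lipid genes went with that of mesenchymal and other skin cell markers. In HF organoids 9 of 9 fibroblast, 6 of 6 smooth muscle, 4 of 4 endothelial and 4 of 5 immune markers were called lower than in hair follicles. So were 3 of 3 melanocyte markers and 3 of 3 follicle markers (KRT32, KRT35 and LHX2). Of 5 basal keratinocyte markers 4 were called higher. The fibroblast sum was 53.0 to 489 CPM in HF organoids, with PDGFRA at 0 in 3 of the 4 groups, against 4433 to 7357 CPM in hair follicles. The part of these cells in the fall was not tested.

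Of the wider fat cell list 18 of 20 tested genes were lower in HF organoids and none higher, with a median log2 change of -4.62. Over all genes 19% were lower and 9.06% higher, with a median of 0.00. Without the 6 genes described here, 13 of 14 were lower. G0S2 averaged 0.62 CPM in HF organoids and 70.2 CPM in hair follicles (-7.00 ± 0.44, edgeR adjusted p = 2.46e-10), and CIDEC averaged 2.43 and 97.3 CPM (-5.34 ± 0.32, 3.69e-11). The sebaceous list had 16 lower and 2 higher of 20 genes, with a median of -2.39, and 12 lower and 2 higher of 16 without the genes described here. KRT79, a keratin of the sebaceous duct and upper follicle in mouse, averaged 10.5 CPM in HF organoids and 460 CPM in hair follicles (-5.65 ± 0.33, 1.92e-10). KRT7, a keratin of glandular epithelium, averaged 3.66 and 137 CPM (-5.37 ± 0.40, 6.5e-10). The risers were FADS2, a fatty acid desaturase (42.1 CPM in HF organoids, 8.004 CPM in hair follicles, 2.37 ± 0.50, 0.000921), and FAR1, the relative of FAR2 (57.8 and 18.9 CPM, 1.55 ± 0.41, 0.00667). FAR1 was lost without hair follicle replicate 1 (0.0807) or 2 (0.0736).

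Droplet and PPAR target genes split, with 13 lower and 4 higher of 20 and a median of -1.80. Of the 14 tested relatives of the 10 genes, 4 were higher and 2 lower, with a median of 0.09, where 9.06% of all genes were higher and 19% lower. The lower ones were PLIN2 (-2.36 ± 0.29) and ELOVL6, a fatty acid elongase (-1.17 ± 0.41). FABP5, the carrier of epidermal cells, averaged 2804 CPM in HF organoids and 816 CPM in hair follicles (1.68 ± 0.44), and FABP3 615 and 24.7 CPM (4.62 ± 1.29). PLIN3, a perilipin of many cell types, averaged 11.56 CPM in HF organoids and 1.94 CPM in hair follicles (2.60 ± 0.63). FABP5, FABP3, PLIN3 and ELOVL6 each missed the threshold without at least 1 hair follicle library, at edgeR adjusted p of 0.101, 0.128, 0.158 and 0.48 in the weakest case.

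In HF organoids FAR2 and MGST1 changed with passage, in opposite directions. FAR2 stood at 46.4 and 36.9 CPM in later HF organoids with the inhibitor and 34.6 and 24.6 CPM in later ones without it. Early organoids had 8.74, 9.21 and 4.10 CPM with the inhibitor and 6.67 and 2.18 CPM without. Every later library exceeded every early one. MGST1 stood at 2.94 and 4.98 CPM in later organoids with the inhibitor and 3.38 and 1.67 CPM in those without. Early organoids had 9.42, 9.21 and 29.2 CPM with the inhibitor and 41.3 and 18.7 CPM without. Here every later library lay below every early one. The 2 IFE organoid libraries, 1 at each passage, had the opposite order for both genes, but on few counts. FAR2 stood at 24.05 CPM (4 counts) in the later and 38.5 CPM (20 counts) in the early IFE library. MGST1 stood at 72.15 and 23.1 CPM, on 12 counts in each. Passage was not tested in IFE organoids.

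FAR2 rose by 2.80 ± 0.48 on the log2 scale at later passage (edgeR adjusted p = 0.00827) and MGST1 fell by 2.75 ± 0.56 (0.0364), where 0.354% of all genes were called (0.172% higher and 0.182% lower). The other 7 genes were not called and their libraries overlapped. FAR2 was lost without the later inhibitor replicate 1 (2.72, 0.0513) and the early no-inhibitor replicate 2 (2.36, 0.105). MGST1 was lost without 6 of the 9 libraries, at changes between -2.31 and -3.05 and an edgeR adjusted p between 0.111 and 0.243. They were both later inhibitor replicates, both later no-inhibitor replicates, the early inhibitor replicate 3 and the early no-inhibitor replicate 1. Of 9 fibroblast markers 2 were called lower at later passage. The fibroblast sum was 53.0 to 65.6 CPM in later organoids and 78.7 to 489 CPM in early ones, and its part in the fall of MGST1 was not tested. No other gene of the 4 lists was called by passage.

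**Figure D4:**
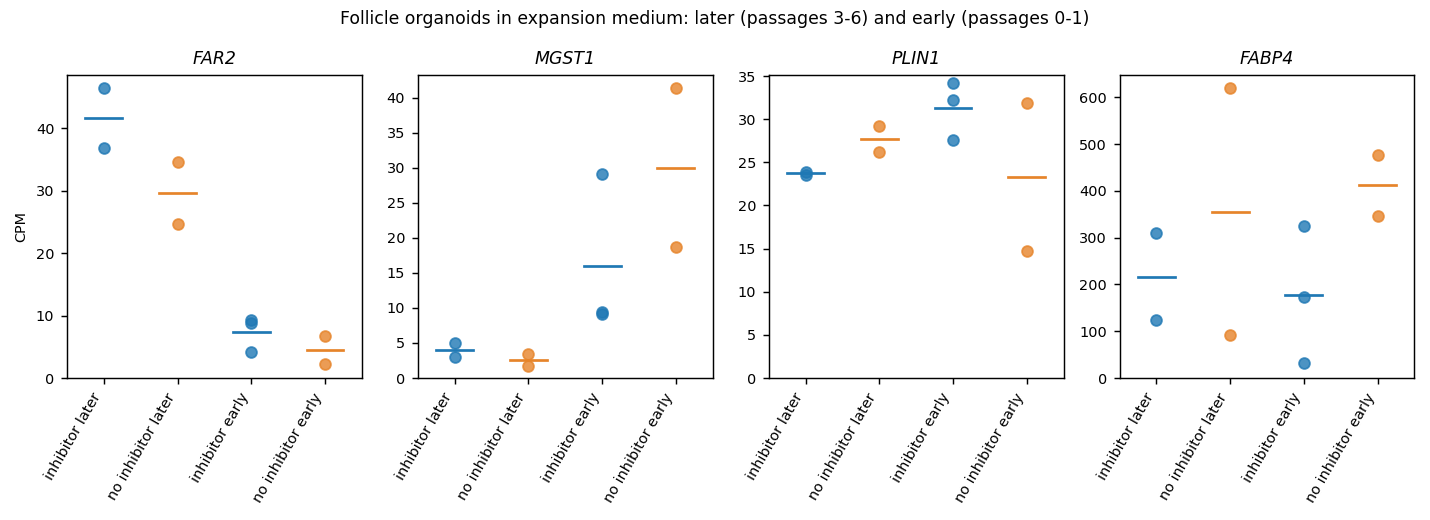
CPM of FAR2, MGST1, PLIN1 and FABP4 in HF organoids in expansion medium, by inhibitor and passage. Each point is a library and the bar is the group mean, and each panel has its own axis from 0. FAR2 lies at 24.6 CPM or more in every later library and at 9.21 CPM or less in every early one, and MGST1 at 4.98 CPM or less in later and 9.21 CPM or more in early libraries.

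The Tgf-beta inhibitor left no called change in the 9 genes, where 2.68% of all genes were called (1.92% higher and 0.758% lower). Scaling by library totals gave 134 higher and 115 lower genes, against 190 and 75 with TMM. edgeR passed 1397 genes at an unadjusted p under 0.05, none of them among the 9, and DESeq2 called 0 of the 9. FABP4 averaged 197 CPM with the inhibitor and 384 CPM without (-0.97 ± 0.59, edgeR adjusted p = 0.488), within the spread of its libraries. Without the low-count filter this FABP4 change was called (-0.98, edgeR adjusted p = 0.0384). The inhibitor's effect was not called different between later and early passage for any of the 9 genes, with 0% of all genes called, 267 genes and 0 of the 9 at an unadjusted p under 0.05, and 1 gene but 0 of the 9 called by DESeq2. In the lists, 2 sebaceous genes were higher with the inhibitor. ALOX15B, a lipoxygenase of sebocytes, averaged 21.6 CPM with it and 2.71 CPM without (2.76 ± 0.50, edgeR adjusted p = 0.00327), but missed the threshold without the later inhibitor replicate 1 (2.06, 0.107) and stood at 5.33 without the early no-inhibitor replicate 2. PRDM1, a transcription repressor of epidermal and sebaceous cells, averaged 35.5 and 6.45 CPM (2.09 ± 0.50, 0.0259). It too was lost without the later inhibitor replicate 1 (1.27, 0.605), and without any of the 4 no-inhibitor libraries (0.0853 to 0.119). HILPDA, a hypoxia-induced droplet protein, and ELOVL1, an elongase, were the higher gene of the droplet list and of the relatives, at 1.79 ± 0.38 and 2.02 ± 0.49. Each missed the threshold without some libraries. No listed fat cell gene was called.

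IFE organoids had 1 library at each passage, and these differed widely. PLIN1 stood at 48.1 CPM in the later and 25 CPM in the early library, ADIPOQ at 60.1 and 5.77 CPM, PLIN4 at 18.0 and 1.92 CPM, and LPL at 6.01 and 1.92 CPM. ELOVL3 stood at 18.0 CPM in the later and 3.85 CPM in the early library, MGST1 at 72.1 and 23.1 CPM, FABP4 at 180.4 and 34.6 CPM and FAR2 at 24.0 and 38.5 CPM. PPARG and SOAT1 had no count in either. These values rest on few counts, such as 8 of PLIN1, 10.1 of ADIPOQ and 3 of PLIN4 in the later library.

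None of the 9 genes was called between IFE organoids and interfollicular epidermis, where 11.3% of all genes were called (6.78% higher and 4.5% lower). With library totals the split of all calls was 389 higher and 1098 lower, against 670 higher and 445 lower with TMM, and the all-gene median was -0.70, against -0.14. edgeR passed 2658 genes and 0 of the 9 at an unadjusted p under 0.05, and DESeq2 called 0 of the 9. In the lists, CPT1A, the carrier enzyme of mitochondrial fat oxidation (-3.14 ± 0.70, edgeR adjusted p = 0.00605), and RXRA, the partner of PPAR receptors (-2.09 ± 0.57, 0.0213), were lower in IFE organoids. FADS2 was higher (3.33 ± 0.99, 0.0335), and PRDM1 (-2.78 ± 0.79, 0.0257) and KRT79 (-1.94 ± 0.57, 0.0354) were lower. Each of these 5 lost its call without at least 1 library. Nor was any of the 9 called between IFE and HF organoids with the inhibitor, where 6.37% of all genes were called (5.86% higher and 0.516% lower). There edgeR passed 1612 of all 9888 genes and 4 of the 9 at an unadjusted p under 0.05. DESeq2 called 7.37% of all genes, 720 higher and 9 lower, and it called 3 of the 9, all higher in IFE organoids. These were ADIPOQ (2.67), ELOVL3 (3.21) and MGST1 (2.55), which edgeR put at 2.44 ± 0.83 (edgeR adjusted p = 0.101), 2.86 ± 1.24 (0.245) and 2.32 ± 0.72 (0.0633). Leaving out an IFE library also dropped the HF organoids of the same passage, so that a single passage was compared. ADIPOQ and MGST1 stood at 4.27 and 4.199 at later passage alone, and at 0.62 and 0.46 at early passage alone. The IFE and HF sides both changed between these fits, and their parts were not tested. With both passages, edgeR called MGST1 without the early HF inhibitor replicate 3 (2.77, edgeR adjusted p = 0.0144).

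The later IFE organoid library was also high in markers of some other skin cells. Its fibroblast sum was 728 CPM, against 138 CPM in the early IFE library and 53.0 to 134 CPM in HF organoids with the inhibitor. Its smooth muscle sum was 319 CPM and its sum of KRT32 and LHX2 277 CPM, against 35.1 to 79.7 CPM and 17.9 to 23.02 CPM in those HF organoids. Its sums of 2 melanocyte and 5 immune markers were 60.1 and 78.2 CPM, against 5.18 to 9.97 CPM and 1.99 to 12.8 CPM. The melanocyte sum was TYRP1 alone, with MLANA at 0. CD74 made up 72.15 CPM of the immune sum, with CD163, TYROBP and CD14 at 0. The sum of 4 endothelial markers was not high, at 6.01 CPM against 5.01 to 16.8 CPM in those HF organoids. LUM, PDGFRA and PDGFRB were at 0 in the later IFE library, and the part of other cells in its lipid gene levels was not tested. Of the lists, G0S2 and KRT79 were called higher in IFE than in HF organoids (4.998 ± 1.23 and 2.67 ± 0.52). Both were lost without the later IFE library, which left early passage on both sides (3.18 and 1.71). Without the early one, which left later passage on both sides, G0S2 was lost too, and KRT79 stood at 3.66. PLIN3, with no count in IFE organoids, was called at least 2.78-fold lower. It was lost without either IFE library, again within a single passage, or without the later HF inhibitor replicate 1.

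In differentiation medium PLIN4 and ELOVL3 were not listed by the files, so that 7 of the 10 genes were tested there. These 6 libraries list 18110 gene entries and the other 17 list 20444, with 17138 in both, and the difference in listing and the medium cannot be told apart. PLIN4 and ELOVL3 entered the joint fit as 0 in these 6 libraries. ADIPOQ stood at 3.31 CPM in 1 DF library and at 0 CPM in the other 5. LPL was at 0 CPM in all 6. PPARG stood at 6.85 CPM, and MGST1 at 3.42 CPM, in 1 DF library each, and MGST1 at 2.47 CPM in 1 DF noNR library. Each of these values is 1 or 2 counts.

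PLIN1, FABP4 and FAR2 were counted in all 6 libraries. PLIN1 stood at 11.4 and 4.30 CPM in DF noNR minusF, 16.9 and 17.3 CPM in DF noNR, and 34.8 and 13.7 CPM in DF, against 26.2 and 29.2 CPM in later HF organoids in expansion medium without the inhibitor. FAR2 stood at 16.0 and 8.59 CPM in DF noNR minusF, 24.1 and 7.41 CPM in DF noNR, and 8.28 and 13.7 CPM in DF, against 34.6 and 24.6 CPM in expansion medium. All 6 FAR2 values lay below both expansion libraries, and the PLIN1 values overlapped. FABP4 stood at 50.2 and 245 CPM in DF noNR minusF, 38.5 and 88.9 CPM in DF noNR, and 125.9 and 44.5 CPM in DF, against 92.4 and 619.2 CPM in expansion medium.

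None of the 7 genes was called between differentiation and expansion medium, where 14.5% of 9732 genes were called (4.4% higher and 10.1% lower). edgeR passed 2946 genes and 4 of the 7 at an unadjusted p under 0.05, and DESeq2 called 0 of the 7. FABP4 changed by -1.94 ± 0.67 (edgeR adjusted p = 0.0577) and FAR2 by -1.20 ± 0.54 (0.141). Without the low-count filter FABP4 (-2.025, edgeR adjusted p = 4.95e-07), ADIPOQ (-3.78, 0.0268) and FAR2 (-1.30, 0.0249) were called. FABP4 passed the threshold without the later no-inhibitor replicate 1 (-2.74, 0.0324), DF replicate 1 (-2.27, 0.0423) or DF noNR minusF replicate 2 (-2.43, 0.0298), and stood at -0.03 without the later no-inhibitor replicate 2. For ADIPOQ, with 2 counts against 23, the ratio of summed counts per total was 0.209, with an exact 95% interval from 0.0239 to 0.847. That interval covers counting error only, and the edgeR adjusted p with the filter was 0.0838. DF noNR minusF against DF noNR and DF noNR against DF gave 0 calls among the 7 genes, with 0% of all genes called in each. edgeR passed 329 and 260 genes at an unadjusted p under 0.05, and DESeq2 called 0. No gene of the 4 lists was called in either.

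Glandular keratins went apart in differentiation medium. KRT7 averaged 35.5 CPM there and 2.31 CPM in expansion medium (3.76 ± 0.63, edgeR adjusted p = 0.000468), and stayed called without any 1 library. KRT79 had no count there and averaged 6.72 CPM in expansion medium, so that it was at least 5.66-fold lower (0.00671). ALOX15B rose by 2.34 ± 0.70 (0.0301) and ELOVL6 fell by 1.89 ± 0.58 (0.0345), and both were lost without either expansion library (0.0790 to 0.216) and without some differentiation libraries, over which the changes ran from 1.90 to 2.58 and from -4.16 to -1.57. No listed fat cell gene was called. Of the relatives, PLIN3 rose by 1.48 ± 0.40, while LIPG, an endothelial lipase (-3.16 ± 0.70), MGST3 (-1.59 ± 0.40) and ELOVL6 fell. Each of these 4 was lost without at least 1 expansion library.

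In the order of group means, whole skin came first for 8 of the 10 genes, with PPARG highest in hair follicles and FABP4 highest in early HF organoids without the inhibitor (412 ± 92.1 CPM, SD, n = 2). PLIN1 averaged 223 ± 46.7 CPM in hair follicles and 290.5 ± 73.3 CPM in whole skin (SD, n = 2 each), and the next group, the later IFE organoids, lay far lower at 48.1 CPM. Below it neighbours mostly overlapped, down to 7.85 ± 5.03 CPM in DF noNR minusF. FAR2 had a flatter order, with 69.2 ± 62.7 CPM in hair follicles, 71.0 ± 51.6 CPM in whole skin and 41.6 ± 6.70 CPM in later HF organoids with the inhibitor, which all overlapped. Its lowest mean was 4.42 ± 3.17 CPM, in early HF organoids without the inhibitor.

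The 10 genes varied together to different degrees over the groups. Pearson's r of log2(CPM + 1) over group means, given as a description over groups that share depth and tissue contrasts, was 0.98 for ADIPOQ and ELOVL3 (9 groups), 0.94 for ADIPOQ and LPL and 0.88 for ADIPOQ and PLIN1 (12 groups). FABP4 reached no more than 0.60 with any of the other 9. FAR2 reached 0.69 with PLIN1 and 0.42 with MGST1. Among 9725 genes, the pattern most like ELOVL3 was that of LRRC15 (0.99), and LRRC15 (0.98) and BAMBI (0.98) were among the 3 most like ADIPOQ. SCD (0.97), SH2D3C (0.97) and CERS4 (0.97) were most like PLIN4, and CAPN12 (0.96), STAC2 (0.94) and APOL5 (0.94) most like PLIN1. The closest named genes were APCDD1 (0.98) for LPL, LAMA2 (0.92) and YPEL1 (0.90) for PPARG, and ALDH1A1 (0.96) and FZD7 (0.95) for MGST1. FABP4 was most like CHGA (0.93), SNRNP40 (0.90) and CFDP1 (0.89), and FAR2 less closely like TMEM135 (0.80) and SLC31A2 (0.80). A further 8 places among the 27 were taken by entries with no symbol.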

How the data were processed

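The authors deposited a table of estimated counts per gene for each library. Of the gene lines 4.91 to 10.65% held a fraction, whose origin was not tested, and counts were rounded here. The submitters' processing notes name BWA 0.6.2-r126 and CanFam3.1. The sources used here give no annotation, counter or use of molecular barcodes. Entries without a gene name (0.461 to 2.16% of counts) were left out.

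Tests used edgeR 4.0.16 (R 4.3.3). The default filter on 12 groups left 9888 genes, 9732 of them listed by the differentiation libraries. TMM scaling and a quasi-likelihood fit of 12 group means over all 23 libraries (11 residual degrees of freedom, common dispersion 0.0986) were used, and pooled groups entered as the mean of their log2 means. Benjamini and Hochberg adjustment ran over all genes. SE is the size of the log2 change over the square root of F. Single-library IFE organoid groups are assumed to vary like the others. Bounds use 3 counts over a group's unscaled total. The fit was tested on simulated data.

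The labels do not say whether replicates are separate dogs or cultures, so p-values measure only the spread between these libraries. The members and lists were chosen with earlier results of these data known. Named genes are the 10 members, up to 3 called genes by p per list, direction and comparison, and the 3 genes most like each member. Some genes that this rule names are not reported here. Alternatives were median-ratio size factors, library totals, no low-count filter, DESeq2 1.42.0, a replicate block, and leaving out each library. The fit of the 17 tissue and expansion libraries alone was chosen after seeing the data. No gene coordinates were used.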

Additional observations from a re-analysis of the deposited data

How the results depend on the processing

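Of 19 called changes of the 10 genes, 8 kept call and direction in all settings tried, 23 of which leave out a library. They are ADIPOQ, ELOVL3, LPL, MGST1, PLIN1 and PLIN4 in HF organoids against hair follicles, and PLIN1 in both comparisons of interfollicular epidermis. No called change turned round, and 12 of 41 called changes of other listed genes kept their call throughout.

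The count of called genes changed as follows. Without the low-count filter, which tests more genes, it was 7 for hair follicle against interfollicular epidermis (5 with the filter), 7 for interfollicular epidermis against whole skin (4), 1 for the inhibitor (0), 2 for IFE against HF organoids (0) and 3 for differentiation medium (0). For hair follicle against interfollicular epidermis it was 4 with size factors, library totals or the replicate block. For IFE against HF organoids it was 1 with size factors and 3 with DESeq2, where 7.12% and 7.37% of all genes were called. The replicate numbers do not pair the samples by the labels, and deviations of same-numbered libraries correlated at over 0.1 in 10 of 45 pairs of groups (range -0.439 to 0.594). With the replicate block the count was 1 for later against early passage (2) and 1 for IFE against HF organoids (0), FABP4 in HF organoids against hair follicles turned to 0.12, and MGST1 missed the threshold for passage (-2.32, adjusted p = 0.144) and for hair follicle against interfollicular epidermis (2.85, 0.0504). Leaving out 1 library gave 1 to 6 genes for hair follicle against interfollicular epidermis, 1 to 2 for interfollicular epidermis against whole skin, 6 to 8 for HF organoids against hair follicles, 0 to 2 for later passage, 0 to 2 for IFE against HF organoids and 0 to 1 for differentiation medium, and FABP4 in HF organoids ran from -0.60 to 0.76, which includes 0.05 and 0.11. In IFE against HF organoids, leaving out an IFE library also left out the HF organoids of that passage. The cause of these differences was not tested.

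Depth limits the interfollicular side most, since 1 of its libraries held 86301 counts, and SOAT1 could not be tested.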
